A study of Rattus norvegicus with 24 samples.

Results

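The 4 rat lung samples titled A1, B1, C1 and G1 were compared with the 16 samples whose titles end in 3, 4, 5 or 6, out of 24 samples in all. Members were chosen by title alone, and the 4 samples that end in 2 were left out of the fit. The series concerns lung cancer in rats exposed to smoky coal, whose combustion releases polycyclic aromatic hydrocarbons. Each title joins a letter (A, B, C or G) to a number from 1 to 6, so each number holds 1 sample of each letter. All samples on both sides of the comparison carry the same labels, lung tissue as the source and smoky coal as the protocol. The labels name no strain, age, dose, time point or untreated control, and they say neither what a letter nor what a number stands for. The comparison therefore asked only whether the samples that share the number 1 differed from those numbered 3 to 6, and anything else that goes with the number cannot be told apart from it.

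The gene groups that follow turn on the lung's matrix and on its antibody-making cells. Elastic fibres, a core of elastin on a scaffold of fibrillin, give the alveolar wall its recoil, collagens I and III carry its tension, and collagen IV, laminins and nidogens form the sheets on which epithelium and endothelium rest. Naive B cells carry immunoglobulin M and D, and after switching class the cells that become plasma cells make immunoglobulin G or A, with rearranged variable segments joined to the constant region.

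Expression was measured by mRNA sequencing and deposited as normalized counts, which summed to 64814590 to 65859100 in the 4 samples and to 61717516 to 66007148 in the 16, and the number of reads behind them is unknown. Sftpc, the surfactant protein that defines alveolar type 2 cells, was at 603887 or more in all 20 samples, so the labelled tissue had its marker. Xist, transcribed from the inactive X chromosome, lay between 13086 and 20919 in all 24 samples. The 4 Y-linked genes Ddx3y, Eif2s3y, Kdm5d and Uty reached at most 12.2, and Usp9y, also Y-linked, was not part of that maximum. Of the 16 reference samples, A4 and B4 stood apart through skeletal muscle genes, and A4 also through squamous epithelial genes, so counts were repeated without them.

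The number 1 samples lay closer to each other than to the rest, by a description with no test. The SD of the log2 differences between 2 samples, taken over 21922 genes, had a median of 0.431 over the 6 pairs within number 1 and 0.477 over the 24 pairs within any of the numbers 3 to 6. It was 0.536 over the 96 pairs that cross those 4 numbers and 0.613 over the 64 pairs that join number 1 to them. G1 was the nearest to the reference samples, with a median of 0.572, and A1, B1 and C1 had medians of 0.621, 0.630 and 0.603.

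Of 30663 genes tested, 2711 (8.84%) passed the threshold, a Benjamini-Hochberg adjusted p under 0.05 in limma. Of these, 1356 (4.42%) were higher and 1355 (4.42%) lower in number 1, and 6556 genes had an unadjusted p under 0.05. The median absolute log2 difference of the genes that passed was 0.47, and the median over all genes tested was -0.01. Among the genes that passed, 173 had a log2 difference over 1 and 407 one under -1. In 640 genes (2.09%) all 4 number 1 samples lay above all 16 others, and in 451 (1.47%) all 4 lay below. These p-values measure only the spread between these samples. Samples of 1 number may also share more than their number, and with each number reduced to a single mean, 1 against 4, 163 genes passed (62 higher, 101 lower).

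Against single numbers, 4092 genes (13.3%) passed against number 3, 4325 (14.1%) against number 4, 2664 (8.69%) against number 5 and 4200 (13.7%) against number 6. The 4 comparisons share the number 1 samples and their residual spread. As a description, 574 genes (1.87%) were higher and 439 (1.43%) lower in number 1 in all 4 of them.

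**Figure D1:**
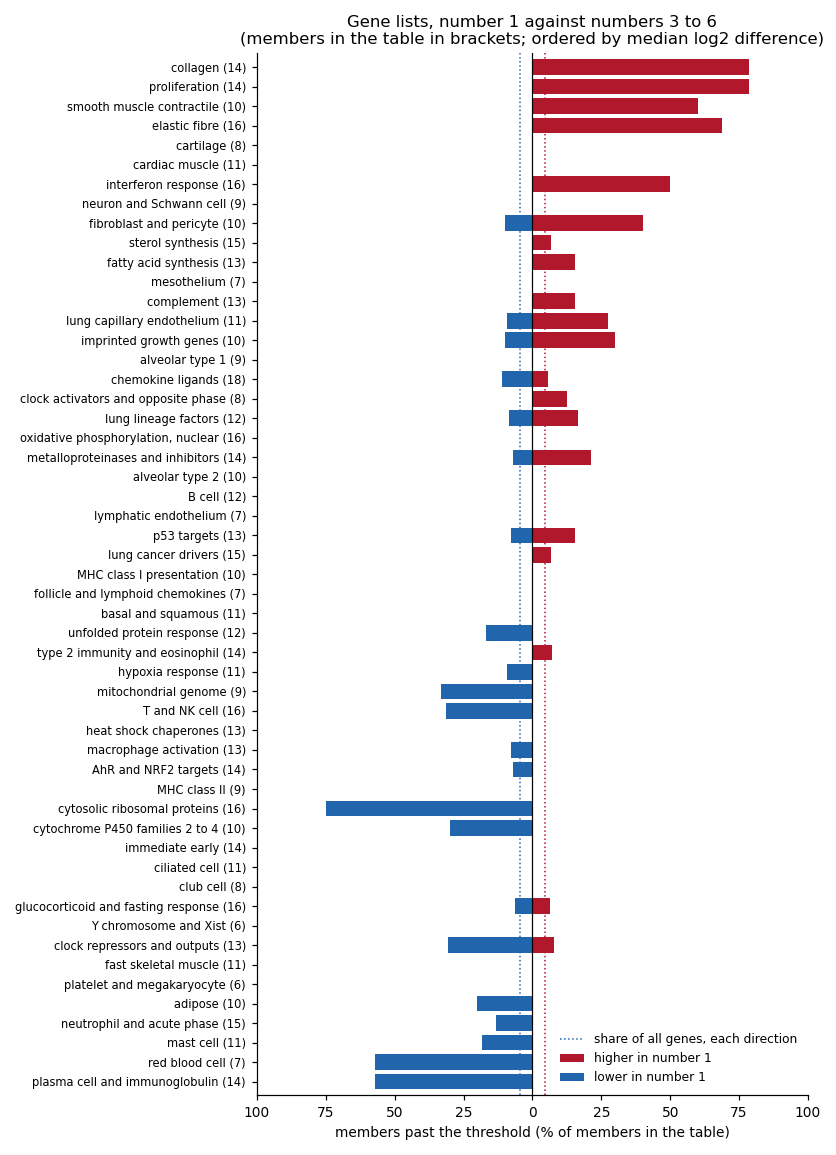
Share of each gene list's members that passed the threshold in number 1 against numbers 3 to 6 (horizontal axis, percent of the members in the table), to the right for higher and to the left for lower in number 1; dotted lines mark the 4.42% of all genes in each direction. Lists are ordered by their median log2 difference. Collagen and proliferation genes (11 of 14 each) reach farthest to the right, and cytosolic ribosomal proteins (12 of 16), immunoglobulin genes and red blood cell genes farthest to the left.

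The matrix genes were higher in number 1. Of 14 collagen genes, 11 were higher and none lower, with a median log2 difference of 0.87, and in all 11 the 4 samples lay above all 16 reference samples. The 3 that did not pass were Col8a1 (0.24), Col14a1 (0.26) and Col18a1 (0.18 on the log2 scale). Of 16 elastic fibre genes, 11 were higher and none lower, with a median of 0.57, and 12 did not overlap. Over all genes tested, 4.42% were higher and 4.42% lower, and these are the shares to set beside each list count that follows. Beside counts of genes without overlap stand 2.09% of all genes with all 4 number 1 samples above the 16 others, and 1.47% with all 4 below. A list of this size with 1 member past the threshold lies near the 8.84% of all genes that passed. With 1 mean per number, 8 of the 14 collagen genes and 2 of the 16 elastic fibre genes, Eln (adjusted p = 0.0209, limma) and Fbn1 (0.00681), still passed. Col1a2 (adjusted p = 0.0724), Col3a1 (0.0645) and Col12a1 (0.142) did not.

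Col1a1 encodes the alpha 1 chain of type I collagen. Its normalized counts were 86793 in A1, 96299 in B1, 98916 in C1 and 67329.7 in G1, against 19870.5 to 43593 (median 29536) in the reference samples. Its log2 difference was 1.59 (SE 0.16, limma adjusted p = 2.24e-06). The lowest number 1 sample, G1, still lay above the highest reference sample, and A1, B1 and C1 were close to each other. Col1a2, the partner chain, had 98963, 100944, 94453 and 74491 in A1, B1, C1 and G1, and the reference samples lay between 25439 and 49474. Its log2 difference was 1.29 (SE 0.15, limma adjusted p = 1.58e-05). Col3a1, which forms the fine fibrils of type III collagen, had 226096, 236406, 223343 and 181486 in the same order, against 47569 to 100228 (median 83487). The log2 difference of Col3a1 was 1.50 (SE 0.17, limma adjusted p = 1.17e-05), again with G1 the lowest of the 4 and no overlap.

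The basement membrane genes followed the same direction. Col4a1 and Col4a2, the 2 main chains of the basement membrane network, had log2 differences of 1.01 (SE 0.09, limma adjusted p = 1.14e-06) and 0.93 (SE 0.09, limma adjusted p = 1.28e-06). Col15a1, a collagen found beside basement membranes, had 20419 in A1, 23069 in B1, 18221 in C1 and 20845 in G1, against 4802 to 10058 (median 7544), a log2 difference of 1.43 (SE 0.12, limma adjusted p = 3.45e-07). Nid1 encodes nidogen 1, which links laminin to collagen IV, and it had the smallest p-value of all 30663 genes. Its normalized counts were 19458 in A1, 19354 in B1, 18939 in C1 and 17183 in G1. The reference samples of Nid1 lay in a narrow band of 6945 to 8770.3 (median 7859.98), and its log2 difference was 1.25 (SE 0.06, limma adjusted p = 7.15e-11). The difference of Nid1 was of like size against numbers 3, 4, 5 and 6, at 1.20, 1.29, 1.26 and 1.23. Sparc, a collagen-binding glycoprotein, had 317037 ± 21322 (SD, n = 4) against 155350 ± 11424 (SD, n = 16), a log2 difference of 1.03 (SE 0.06, limma adjusted p = 7.82e-09), without overlap.

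Elastin was among the 10 genes with the highest differences. The normalized counts of Eln were 202776 in A1, 208928 in B1, 217504 in C1 and 144861 in G1, against 36123 to 78243 (median 57879.8). Its log2 difference was 1.88 (SE 0.18, limma adjusted p = 1.7e-06), a 3.67-fold difference on that scale. G1 was the lowest of the 4 and lay above the highest reference sample. Fbn1, which encodes the fibrillin scaffold, had 27587 in A1, 29333 in B1, 26774 in C1 and 22509 in G1, against 7996 to 13534 (median 9961), and a log2 difference of 1.39 (SE 0.11, limma adjusted p = 9.4e-08). Fbn2, the fibrillin of developing tissue, was low in all samples, with 48.3, 69.7, 43.3 and 45.3 in A1, B1, C1 and G1 and 15.3 to 40.8 (median 23.4) in the reference samples, a log2 difference of 1.03 (SE 0.23, limma adjusted p = 0.00568). The microfibril gene Mfap2 (0.89), the latent TGF-beta binding protein Ltbp2 (0.92), the elastic fibre assembly gene Fbln5 (0.55) and the cross-linking enzymes Lox (0.66) and Loxl1 (0.84) were also higher on the log2 scale, each without overlap.

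**Figure D2:**
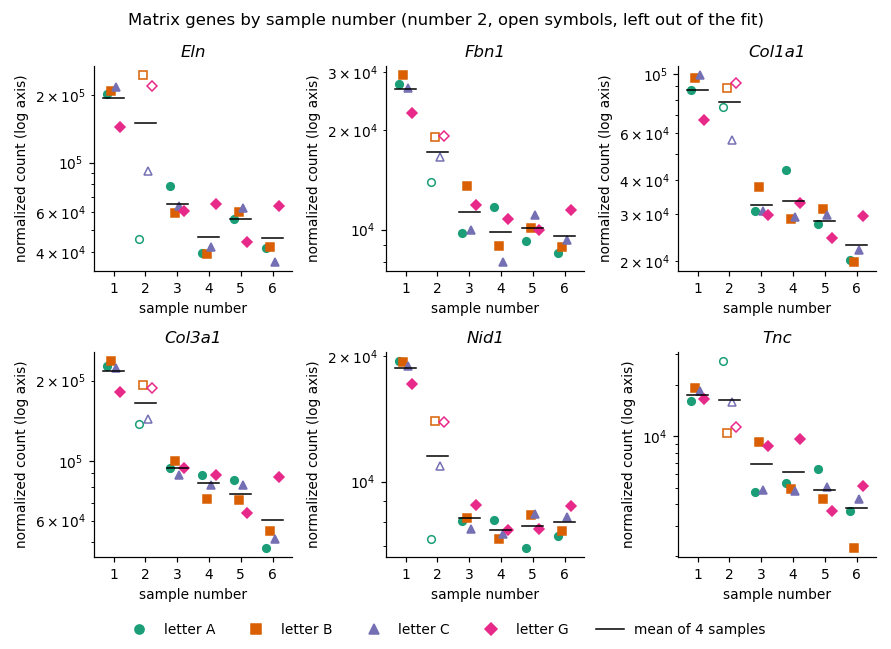
Normalized counts (vertical axis, log scale) of 6 matrix genes by sample number (horizontal axis), 1 point per sample with the letter as colour and shape; bars are the mean of 4 samples and open symbols mark number 2, which is not in the fit. In each panel the 4 number 1 points lie above the 16 points of numbers 3 to 6, as for Nid1 with 17183 or more against at most 8770.3.

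Wider families, chosen after their values were seen and therefore only described, gave the following counts among genes with a mean of at least 10, of which 6.03% were higher and 5.83% lower over all 21889. Of 43 collagen chains, 19 were higher and 3 lower, the lower ones being Col6a4 (-1.50), Col9a2 (-0.56) and Col17a1 (-0.55), of which Col17a1 belongs to epithelial anchoring junctions. Of 12 laminin and nidogen genes, 9 were higher and none lower, with a median of 0.59. Of 5 lysyl oxidases, 4 were higher, led by Loxl2 at 1.44, which had 2480.1, 2617, 2544 and 2409 in A1, B1, C1 and G1 and 659.6 to 1162 (median 949.6) in the reference samples. Of 16 ADAMTS genes, extracellular proteases that include the procollagen processing enzymes, 11 were higher and none lower. Together the collagen chains took 1.62%, 1.69%, 1.61% and 1.39% of all normalized counts in A1, B1, C1 and G1, against 0.712% to 1.01% in the reference samples. The number 2 samples lay between, at 1.04% to 1.33%.

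Of 14 metalloproteinases and their inhibitors, 3 were higher and 1 lower. Mmp2, a gelatinase made mainly by fibroblasts, had 22875 ± 2017 (SD, n = 4) against 12983 ± 1267 (SD, n = 16), a log2 difference of 0.82 (SE 0.08, limma adjusted p = 1.68e-06), without overlap. Mmp14, the membrane protease that activates Mmp2, had a log2 difference of 0.52 (SE 0.10, limma adjusted p = 0.00153), and Mmp19 one of 0.40 (SE 0.08, limma adjusted p = 0.00269). Mmp9, a neutrophil and macrophage gelatinase, was lower, at -1.07 (SE 0.32, limma adjusted p = 0.0419), with 91.4, 71.5, 130.02 and 323 against 143 to 617 (median 256), so that G1 lay within the reference range. Mmp9 did not pass without A1, without B1, without C1, without A4 and B4, with number as a random block, with 1 mean per number, with number 2 added or with quantile normalization, while without G1 Mmp9, Mmp8 and Timp4 were lower. Of the 3 higher genes, 1 passed with 1 mean per number or with number 2 added. The inhibitors Timp1, Timp2 and Timp3 had log2 differences of 0.22, 0.01 and 0.00, and none passed the threshold. Mmp12, the macrophage elastase, had 180.1, 141, 152 and 211 in A1, B1, C1 and G1, within the reference range of 44.1 to 305 (median 123), and did not pass (adjusted p = 0.293, limma).

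Among the 10 highest differences with a mean of at least 50 and no overlap were Eln and further matrix genes. Tnc encodes tenascin C, a matrix glycoprotein of remodelling tissue. It had 16097 in A1, 19073 in B1, 18412 in C1 and 16428 in G1, against 2239 to 9565 (median 4868), and a log2 difference of 1.78 (SE 0.25, limma adjusted p = 0.00015). Adamts17 had 4248, 4768, 4294 and 3402 in A1, B1, C1 and G1, against 816 to 1699 (median 1238), a log2 difference of 1.83 (SE 0.18, limma adjusted p = 2.15e-06). Adamts19 had 311, 354, 394 and 309 against 67.2 to 160.4 (median 112), and 1.64 (SE 0.19, limma adjusted p = 1.52e-05). For these 3 genes every number 1 sample lay above every reference sample. With 1 mean per number, Tnc and Adamts19 did not pass and Adamts17 did.

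The other 6 of these 10 genes belong to different functions. Klk6, a secreted serine protease, had 295 in A1, 304 in B1, 293 in C1 and 362 in G1, against 20.9 to 173 (median 71.8), and the highest log2 difference of the 10, 1.99 (SE 0.37, limma adjusted p = 0.00148). Scn3b, a beta subunit of sodium channels, had 9201 in A1, 9731 in B1, 7403 in C1 and 9659.6 in G1, against 1718 to 3231 (median 2179.6), and a log2 difference of 1.95 (SE 0.12, limma adjusted p = 6.26e-09). Slc26a10, of an anion transporter family, had 199, 194, 189 and 248 against 23.9 to 125 (median 51.7), and 1.94 (SE 0.27, limma adjusted p = 0.000105). In Klk6 and Slc26a10 A1, B1 and C1 lay close together, and G1 was higher. Tafa1, a secreted chemokine-like protein, was low, with 124, 123, 126 and 137 against 14.9 to 78.9 (median 37.5), and 1.79 (SE 0.27, limma adjusted p = 0.000288). Rgs4, a regulator of G-protein signalling, had 1269, 1353, 1052 and 1049 against 212 to 696 (median 363), and 1.74 (SE 0.20, limma adjusted p = 1.52e-05). Cpvl, a serine carboxypeptidase, had 1268, 1362, 1232 and 1010.1 against 225 to 539.7 (median 429.7), and 1.60 (SE 0.17, limma adjusted p = 6.29e-06). Pcdh17, a protocadherin among the 5 smallest p-values, had 7566 ± 619.6 (SD, n = 4) against 3613 ± 305 (SD, n = 16) and a log2 difference of 1.07 (SE 0.06, limma adjusted p = 6.26e-09). In each of these 7 genes all 4 number 1 samples lay above the reference range. With 1 mean per number, Klk6, Slc26a10 and Tafa1 did not pass, while Scn3b, Rgs4, Cpvl and Pcdh17 did.

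Markers of the cells that make matrix were mixed. Of 10 fibroblast and pericyte markers, 4 were higher and 1 lower, with a median log2 difference of 0.28. Pdgfrb, a receptor of pericytes and fibroblasts, had 13637 in A1, 13804 in B1, 13369.8 in C1 and 13328 in G1, against 6925 to 11236 (median 9005), and 0.59 (SE 0.10, limma adjusted p = 0.000746). Inmt, a methyltransferase of lung fibroblasts, was lower in A1, B1 and C1, with 2478, 2833, 2671 and 4089.8 against 4021 to 15046 (median 6781), while G1 lay just inside the reference range. Its log2 difference was -1.32 (SE 0.25, limma adjusted p = 0.0017). With 1 mean per number, 1 of the 4 higher markers passed, and it was Col1a1, which is also in the collagen list. Inmt did not pass in that setting or with number 2 added. Pdgfra, Tcf21 and Dcn, general fibroblast genes, had log2 differences of -0.08, -0.17 and 0.01, and none passed. In tissue samples such as these, fewer cells of a type and less RNA per cell cannot be told apart.

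Of 10 smooth muscle contractile genes, 6 were higher and none lower, with a median of 0.66. Acta2, smooth muscle actin, had 8058 in A1, 9595 in B1, 11313 in C1 and 11393 in G1, against 3537 to 9611 (median 5229), and a log2 difference of 0.89 (SE 0.20, limma adjusted p = 0.00563). Tagln had 267, 302, 352 and 389 against 116 to 336 (median 200.1), and 0.69 (SE 0.17, limma adjusted p = 0.0152). Myocd, the coactivator that drives the contractile programme, had 208, 165, 178 and 226 against 62.5 to 163 (median 111), and 0.79 (SE 0.16, limma adjusted p = 0.00381), without overlap. A1 and B1 lay inside the reference range for Acta2. Without A4 and B4, 9 of the 10 passed, and with 1 mean per number none did. Genes of fibroblast signalling, chosen after their values were seen, included Gli1, the readout of Hedgehog signalling, at 703, 662, 684 and 549 against 157 to 386 (median 254) and a log2 difference of 1.36 (SE 0.16, limma adjusted p = 1.69e-05). Notch3, a receptor of mural cells, had 0.64 (SE 0.07, limma adjusted p = 8.48e-06), Wnt5a 0.91 (SE 0.08, limma adjusted p = 1.14e-06) and Wif1, a secreted WNT inhibitor, 0.96 (SE 0.09, limma adjusted p = 1.14e-06). Ihh, a Hedgehog ligand, was lower, with 65.4, 54.8, 59.5 and 74.5 against 105 to 199 (median 155) and -1.21 (SE 0.15, limma adjusted p = 3.1e-05).

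Of 11 capillary endothelial genes, 3 were higher and 1 lower. Emcn, an endothelial surface mucin, had 6836, 7243, 7051 and 6812 in A1, B1, C1 and G1 against 3557 to 5706 (median 4296), and 0.68 (SE 0.10, limma adjusted p = 0.000262). Cdh5, the endothelial cadherin, had 66332 ± 2230.5 (SD, n = 4) against 47509 ± 4216 (SD, n = 16), and 0.49 (SE 0.06, limma adjusted p = 5.13e-05). Both were above the reference range in every letter. Gpihbp1, which anchors lipoprotein lipase to capillaries, was lower, at -0.48 (SE 0.14, limma adjusted p = 0.0381), and Pecam1 was higher at 0.19. None of the 11 passed with 1 mean per number, and Gpihbp1 did not pass when any 1 of the number 1 samples was left out, with number as a random block or with number 2 added. When any 1 of the number 1 samples was left out, the count of higher genes fell from 3 to 2. It was also 2 with quantile normalization, with number 2 added or with number as a random block. Vwf and Kdr had log2 differences of 0.12 and 0.26 and did not pass.

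The epithelial marker lists named next gave no member past the threshold. Tuft cell genes, given under other observations, are not in these lists. The lists covered 10 genes of surfactant-making type 2 cells, 9 of the flat type 1 cells, 11 basal and squamous, 11 ciliated and 8 club cell genes, with median log2 differences from -0.31 to 0.05. Sftpc had 689907, 698419, 711127 and 603887 in A1, B1, C1 and G1 against 610363 to 922496 (median 693602), a log2 difference of -0.09 (SE 0.10, limma adjusted p = 0.679). Scgb1a1, the secretory protein of club cells, had 412326, 369473, 452242 and 460024 against 393172 to 652541 (median 539093), and -0.29 (SE 0.11, limma adjusted p = 0.121). G1 lay just under the lowest reference sample for Sftpc and B1 did for Scgb1a1, and the other samples lay within the range. Of 12 transcription factors of lung lineages, 2 were higher and 1 lower: Tbx4 and Tbx5, factors of the lung mesenchyme, at 0.36 (SE 0.07, limma adjusted p = 0.00157) and 0.32 (SE 0.10, limma adjusted p = 0.0429), and Foxa2, a factor of the airway epithelium, at -0.30 (SE 0.07, limma adjusted p = 0.0103). None of the 12 passed with 1 mean per number, Tbx5 was lost when any 1 of the number 1 samples was left out, without A4 and B4, with quantile normalization, with number 2 added or with number as a random block, and Foxa2 was lost without B1, without C1 or with number as a random block.

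Genes of dividing cells were higher. Of 14 proliferation genes, 11 passed and all 11 were higher, with a median of 0.80, but only in 2 of them, Mki67 and Pcna, did the groups not overlap. Mki67, a marker of cycling cells, had 1729 in A1, 1633 in B1, 1105 in C1 and 1007 in G1, against 557 to 991 (median 707), and a log2 difference of 0.89 (SE 0.16, limma adjusted p = 0.00114). Top2a, the topoisomerase of mitosis, had 1757 in A1, 1606 in B1, 1091 in C1 and 729 in G1, against 359.8 to 882 (median 551), and 1.18 (SE 0.23, limma adjusted p = 0.00232). Cdk1, the mitotic kinase, had 875, 776, 561 and 435 against 205 to 448 (median 304), and 1.08 (SE 0.17, limma adjusted p = 0.000372). Ccna2, a cyclin of S phase and mitosis, had 600.3, 534, 373 and 304 against 159.99 to 305 (median 229), and 0.92 (SE 0.17, limma adjusted p = 0.00144). In each of these genes A1 and B1 were the highest and G1 the lowest, and for Top2a, Cdk1 and Ccna2 G1 lay inside the reference range. Without A1, 7 of the 14 passed. The mean of Mki67 was 1369 in number 1 and 2479.6 in number 2, and none of the 14 passed when they were added to the reference or when each number was reduced to its mean.

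The promoters of Cdk1 and Top2a are shown because cell cycle promoters are known to carry CCAAT boxes and the TTTGAA core of the cell cycle homology region. The sequences are the bases before the transcription start in RefSeq (assembly GRCr8), chr20:19265043-19265292 on the plus strand for Cdk1 and chr10:84473094-84473343 on the minus strand for Top2a, 5′ to 3′, with matches to either motif on either strand in capitals.
Cdk1: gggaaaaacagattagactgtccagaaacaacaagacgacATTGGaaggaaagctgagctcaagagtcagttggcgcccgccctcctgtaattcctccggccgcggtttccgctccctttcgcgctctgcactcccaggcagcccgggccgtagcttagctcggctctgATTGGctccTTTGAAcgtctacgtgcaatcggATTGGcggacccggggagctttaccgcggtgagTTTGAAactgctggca
Top2a: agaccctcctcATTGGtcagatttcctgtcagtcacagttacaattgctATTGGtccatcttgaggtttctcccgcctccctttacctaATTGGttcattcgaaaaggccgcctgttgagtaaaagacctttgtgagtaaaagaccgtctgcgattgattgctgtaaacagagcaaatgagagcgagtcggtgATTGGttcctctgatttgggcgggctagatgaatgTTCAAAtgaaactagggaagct
A promoter was matched by symbol for 11 of the 14 members. The windows searched also hold a short stretch after the start. CCAAT was found in 8 of these 11, and in 8 of the 9 that were higher, against 37.7% of all 27457 rat promoters. TTTGAA was found in 6 of the 11, and in 5 of the 9, against 18.1% of all. Matches to the 2 motifs can overlap, and in the Mki67 promoter a pair of them shares 1 base. A match is a description of the sequence and not of binding.

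Immunoglobulin G transcripts were lower in number 1. Of 14 plasma cell and immunoglobulin genes, 8 were lower and none higher, with a median log2 difference of -1.42, and 7 did not overlap. Over all genes tested, 4.42% were lower, and in 1.47% all 4 number 1 samples lay below all 16 others. With 1 mean per number, 6 were lower. The decreases lay in class-switched heavy chains, light chains, the joining chain and a plasma cell chaperone.

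Ighg2b, the constant region of IgG2b, had normalized counts of 492 in A1, 369 in B1, 368 in C1 and 631 in G1, against 8539 to 68791 (median 27906). Its log2 difference was -6.03 (SE 0.38, limma adjusted p = 8.09e-09), 65.6-fold lower on that scale. The highest number 1 sample, G1, lay under the lowest reference sample. Ighg2c had 237, 214, 259 and 355 in A1, B1, C1 and G1 against 4971 to 37209.9 (median 15346), and -5.94 (SE 0.38, limma adjusted p = 8.09e-09). Ighg3 had 511, 465, 591 and 884 against 6852 to 51649 (median 22319), and -5.23 (SE 0.38, limma adjusted p = 5.35e-08). Ighg1 had 1998, 2075, 2822 and 5294 against 20597 to 106513 (median 37862), and -3.93 (SE 0.34, limma adjusted p = 4.6e-07). In all 4 IgG constant regions G1 was the highest of the number 1 samples, and all 4 letters were below the reference range. The names are those of mouse genes, and reads may have been shared among these regions, so the 4 are not separate results and their total is firmer. Together the 4 constant regions took 0.00500%, 0.00474%, 0.00621% and 0.0110% of all normalized counts in A1, B1, C1 and G1, against 0.0638% to 0.383% in the reference samples.

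The light chains and the secretory genes followed. Igkc, the kappa constant region, had 11535 in A1, 10827 in B1, 14626 in C1 and 27099.5 in G1, against 61730.2 to 303241 (median 128561), and a log2 difference of -3.18 (SE 0.32, limma adjusted p = 3.15e-06). Iglc2 and Iglc3, lambda constant regions, had -2.99 (SE 0.46, limma adjusted p = 0.000287) and -3.23 (SE 0.46, limma adjusted p = 0.000153). Jchain, which joins IgA and IgM into polymers, had 2851 in A1, 2438 in B1, 3126 in C1 and 5927 in G1, against 13166 to 38985 (median 20404), and -2.69 (SE 0.24, limma adjusted p = 7.7e-07). Mzb1, a chaperone of antibody secretion, had 72.1, 75.4, 82.7 and 186 against 189 to 559 (median 252), and -1.51 (SE 0.23, limma adjusted p = 0.000317), with G1 just under the lowest reference sample. Each of these lay under the reference range in all 4 letters. The regulators of the plasma cell state did not pass: Xbp1, Prdm1 and Tnfrsf17 had log2 differences of -0.21, -0.15 and -0.44.

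Most variable segments were lower too. Of 105 heavy chain variable segments with a mean of at least 10, a family chosen after its values were seen, 77 were lower and none higher, with a median of -2.30. Of 115 kappa variable segments, 101 were lower and none higher, with a median of -2.40. Among all genes with such a mean, 5.83% were lower. The 10 lowest differences of all genes, under the same conditions as the highest 10, were the 4 IgG constant regions and 6 variable segments. Ighv5-10 had 6.60, 12.7, 7.08 and 19.1 in A1, B1, C1 and G1 against 59.7 to 1065 (median 279.9), and -4.62 (SE 0.42, limma adjusted p = 1.12e-06). Igkv12-49 had 0.841, 0.915, 5.07 and 14.1 against 22.5 to 808 (median 99.1), and -4.60 (SE 0.62, limma adjusted p = 6.8e-05). Igkv14-100 had 5.64, 2.87, 14.1 and 92.6 against 175 to 798 (median 303), and -4.56 (SE 0.52, limma adjusted p = 1.3e-05). G1 was the highest of the 4 in all 3 segments. Ighv5-9, Igkv12-98 and Igkv10-95 had log2 differences of -4.08, -3.76 and -3.76. The segment names are those of mouse genes, and reads of near-identical segments may have been split among them, so single segments are uncertain and their total is the firmer value. All kappa segments together took 0.00442% to 0.00982% of all normalized counts in number 1, against 0.0243% to 0.0996% in the reference samples. All heavy chain segments took 0.00318% to 0.00675% against 0.0146% to 0.0711%.

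IgA, IgM and IgD gave a different picture. Igha had 9575 in A1, 9444 in B1, 11583 in C1 and 24463 in G1, against 10274 to 32236 (median 16212), and a log2 difference of -0.42 (SE 0.29, limma adjusted p = 0.456). Ighm, the constant region of IgM, had 2762, 2851, 3946 and 3445 against 2119.9 to 6331 (median 2965), and -0.04 (SE 0.23, limma adjusted p = 0.956). Ighd, carried with IgM on naive B cells, had 296, 280.4, 349 and 323 against 156 to 539 (median 221), and 0.29 (SE 0.31, limma adjusted p = 0.661). In these 3 genes the number 1 samples lay among the others, except for A1 and B1 just under the lowest reference sample for Igha. None of the 12 B cell markers passed, and their median log2 difference was 0.00. The 7 follicle and lymphoid chemokine genes gave no member past the threshold either, with a median of -0.06.

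**Figure D3:**
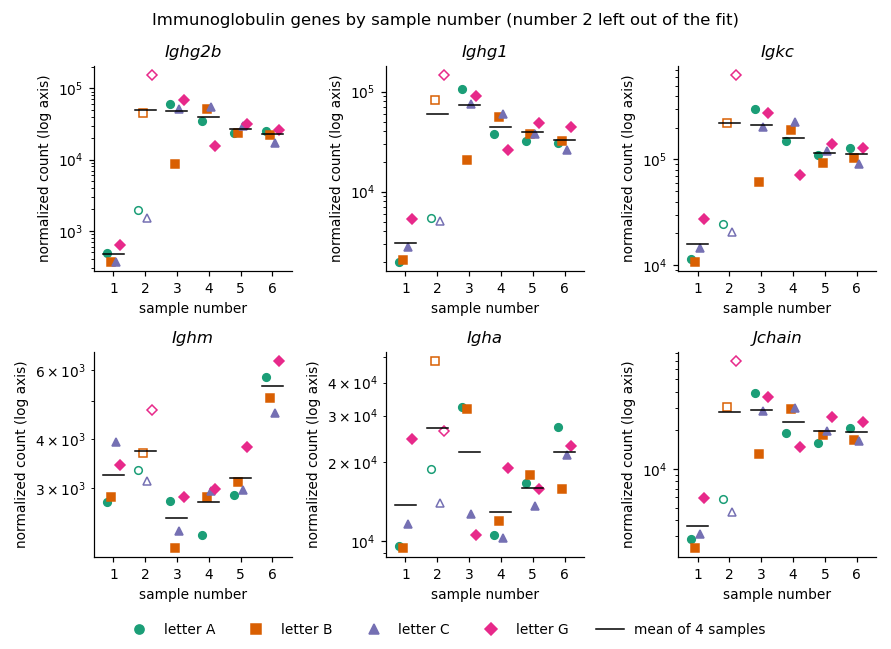
Normalized counts (vertical axis, log scale) of 5 immunoglobulin constant regions and the joining chain gene Jchain by sample number (horizontal axis); symbols as for the matrix genes, with bars at the mean of 4 samples and number 2, in open symbols, left out of the fit. For Ighg2b, Ighg1, Igkc and Jchain the 4 number 1 points lie under the 16 points of numbers 3 to 6, while for Ighm and Igha they overlap with them.

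Number 2, outside the comparison, was split for these genes. Ighg2b had 1958, 45046, 1501 and 153524 in A2, B2, C2 and G2, so A2 and C2 lay between number 1 and the lowest reference sample, B2 lay within the reference range and G2 above it. Among the reference numbers, the means of Ighg2b were 47592, 39236, 27186 and 22692 for numbers 3 to 6. The log2 difference of number 1 was -6.35, -6.28, -5.89 and -5.63 against numbers 3, 4, 5 and 6.

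Of 16 T and NK cell genes, 5 were lower and none higher, where 4.42% of all genes tested were lower. All 5 were parts of the T cell receptor complex: Trac, Cd3e, Cd3d, Cd3g and Trbc2. Trac, the alpha constant region, had 622 in A1, 603 in B1, 663 in C1 and 678 in G1, against 860.5 to 1647 (median 1057), and a log2 difference of -0.80 (SE 0.16, limma adjusted p = 0.00234). Cd3e had 349, 358, 366 and 516 against 498 to 854 (median 622), and -0.70 (SE 0.14, limma adjusted p = 0.00262), with G1 inside the reference range. Cd3d had 257, 237, 238 and 267 against 312 to 499 (median 386), and -0.60 (SE 0.12, limma adjusted p = 0.00245). Cd4 and Cd8a, the coreceptors, had log2 differences of 0.00 and -0.13, and the cytotoxic genes Gzmb and Prf1 -0.20 and 0.04, and none of them passed. The count fell to 3 without A1, without B1, without C1 or with number as a random block, and to none with 1 mean per number. Other lymphocyte genes, chosen after their values were seen, were the receptors Slamf1, Ccr4, Cxcr6 and Cd5, at -1.94 (SE 0.29, limma adjusted p = 0.000225), -1.68 (SE 0.28, limma adjusted p = 0.000592), -1.27 (SE 0.15, limma adjusted p = 1.72e-05) and -0.88 (SE 0.15, limma adjusted p = 0.000708). In these 4 genes no number 1 sample reached the reference range, as for Cxcr6 with 219.5, 232, 223 and 200.2 against 394 to 718 (median 499.8).

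Of 13 macrophage activation genes, 1 passed, where 8.84% of all genes tested did. Trem2, a lipid-sensing receptor of macrophages, had 543 in A1, 527 in B1, 448 in C1 and 317 in G1, against 881 to 2889 (median 1678), and a log2 difference of -1.92 (SE 0.18, limma adjusted p = 1.32e-06). All 4 samples lay under the lowest reference sample. Spp1 had 178, 177, 117 and 107 against 28.1 to 334 (median 118) and did not pass (adjusted p = 0.761, limma). Of 15 neutrophil and acute phase genes, 2 were lower: Mmp9, given with the proteases, and Ngp, a granule protein, with 19.1, 4.83, 15.1 and 28.2 against 23.0 to 196 (median 89.4) and -2.40 (SE 0.48, limma adjusted p = 0.00299). The mean score of that list ranged from -0.73 to 0.44 in number 1, with G1 the highest, and from -0.70 to 0.97 in the reference. The count of 2 rose to 6 without G1, with S100a9, Camp, Mmp8 and Il1b added, and fell to 1 without A1, B1, C1 or both A4 and B4 or with number as a random block, and to none with 1 mean per number. Of 11 mast cell genes, 2 were lower, the proteases Cma1 at -1.55 (SE 0.41, limma adjusted p = 0.0199) and Cpa3 at -1.43 (SE 0.43, limma adjusted p = 0.0424), both with overlap. Neither passed with number as a random block, with 1 mean per number, without C1 or without B1, where Ms4a2 was lower instead, and Cpa3 did not pass without G1, without A4 and B4, with number 2 added or with quantile normalization.

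Of 18 chemokine ligands, 1 was higher and 2 lower. Cxcl14, made by fibroblasts and epithelium, had 5064 in A1, 5715 in B1, 4859 in C1 and 3458 in G1, against 1650.1 to 2684 (median 2022), and 1.21 (SE 0.11, limma adjusted p = 1.28e-06). Cxcl9, a ligand induced by interferon gamma, had 292, 239, 223 and 311 against 376 to 1198 (median 577), and -1.11 (SE 0.22, limma adjusted p = 0.00225). Ccl6 had 9854, 9099.9, 9276 and 8817 against 9873 to 20004 (median 13881), and -0.58 (SE 0.12, limma adjusted p = 0.00471). None of these 3 overlapped. Ccl11, the eosinophil attractant eotaxin, was the 1 of 14 type 2 immunity genes that passed, with 301, 292, 343 and 271 against 93.6 to 309 (median 131) and 1.03 (SE 0.25, limma adjusted p = 0.0131). Ccl11 did not pass without A1, B1 or C1, with number as a random block or with 1 mean per number, and without G1 or without A4 and B4 a member of that list was lower. Of the chemokine ligands, Cxcl14 alone passed with 1 mean per number, and 1 of the 2 lower ones passed with number 2 added.

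Of 16 interferon-stimulated genes, 8 were higher and none lower, with a median of 0.37, and in none did the groups separate. Oas2, an antiviral RNA sensor, had 907 in A1, 837 in B1, 687 in C1 and 1112 in G1, against 362 to 779.7 (median 446), and a log2 difference of 0.90 (SE 0.16, limma adjusted p = 0.00104). Mx2 and Mx1, antiviral GTPases, had 0.74 (SE 0.15, limma adjusted p = 0.00315) and 0.66 (SE 0.16, limma adjusted p = 0.0118). Irf7, the factor that amplifies interferon production, had 5045, 4452, 4210.1 and 5689 against 2549 to 4931 (median 3274), and 0.52 (SE 0.14, limma adjusted p = 0.0233). G1 was the highest of the 4 in each of these genes. The count fell to 4 without G1 or without A1, to 5 without C1, without number 5 or with number as a random block, to 1 with number 2 added and to none with 1 mean per number. Without G1, Ifit1 was lower (-0.98, limma adjusted p = 0.0119).

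Promoters of 3 of the higher interferon-stimulated genes are shown because such genes are known to carry a response element of GAAA, any pair of bases and GAAA again. The sequences are the bases before the start in RefSeq (GRCr8), with the match on either strand in capitals, at chr1:205800024-205800273 (minus strand) for Irf7, chr12:47383186-47383435 (minus strand) for Oasl2 and chr2:234005477-234005726 (plus strand) for Gbp2.
Irf7: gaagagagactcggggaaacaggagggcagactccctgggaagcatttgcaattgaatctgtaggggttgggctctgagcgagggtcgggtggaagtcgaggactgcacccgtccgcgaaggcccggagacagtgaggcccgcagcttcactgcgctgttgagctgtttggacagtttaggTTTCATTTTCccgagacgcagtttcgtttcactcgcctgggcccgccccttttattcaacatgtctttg
Oasl2: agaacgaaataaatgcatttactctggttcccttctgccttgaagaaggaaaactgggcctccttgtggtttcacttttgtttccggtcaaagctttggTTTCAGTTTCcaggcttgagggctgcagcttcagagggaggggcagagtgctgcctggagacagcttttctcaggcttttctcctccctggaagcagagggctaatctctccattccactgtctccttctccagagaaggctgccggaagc
Gbp2: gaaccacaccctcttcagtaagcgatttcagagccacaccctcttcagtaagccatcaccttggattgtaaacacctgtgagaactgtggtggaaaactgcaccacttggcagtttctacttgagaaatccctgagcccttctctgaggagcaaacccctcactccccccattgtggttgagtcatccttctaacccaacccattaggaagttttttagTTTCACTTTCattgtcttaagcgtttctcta
A promoter was matched by symbol for 9 of the 16 members. The element was found in 8 of these 9 promoters, and in 4 of the 5 whose gene was higher, against 3.77% of all 27457 promoters. Oasl2 had a log2 difference of 0.49 (SE 0.08, limma adjusted p = 0.000827) and Gbp2 one of 0.35 (SE 0.07, limma adjusted p = 0.00367). Members with the element that did not pass included Rsad2 and Cxcl10, at -0.31 and 0.33.

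Complement gave 2 higher members of 13, C7 at 0.51 (SE 0.07, limma adjusted p = 0.000122) and the receptor C3ar1 at 0.49 (SE 0.14, limma adjusted p = 0.0285), and none lower. Leaving out any 1 of the number 1 samples, adding number 2 or taking number as a random block left only C7, and 1 mean per number neither. Neither MHC class I (10 genes) nor class II (9 genes) had a member past the threshold, with medians of -0.05 and -0.21.

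Clock genes differed in part. Of 13 repressors and output genes, 4 were lower and 1 higher, with a median of -0.39. Nr1d1, which encodes the repressor REV-ERB alpha and peaks by day in rodents, had 1307 in A1, 1052 in B1, 1057 in C1 and 1302 in G1, against 1466 to 19849.8 (median 5403), and a log2 difference of -2.32 (SE 0.45, limma adjusted p = 0.00219). Nr1d2, its relative, had 2408, 2056, 1704 and 1969 against 2598 to 9246 (median 4658), and -1.27 (SE 0.22, limma adjusted p = 0.000761). Per3 had 1040.4, 922, 768 and 987 against 1086 to 4076 (median 1779.6), and -1.12 (SE 0.27, limma adjusted p = 0.0103). Tef, a clock output factor, had -0.60 (SE 0.16, limma adjusted p = 0.0185). In these 4 genes all number 1 samples lay under the lowest reference sample. Cry1, a repressor with a later phase, was higher without overlap, with 1782, 1738, 2074 and 2037 against 888 to 1559.8 (median 1128) and 0.75 (SE 0.09, limma adjusted p = 2.15e-05).

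The other clock genes overlapped. Dbp, an output factor, had 395, 380.3, 438 and 354 against 389 to 3617 (median 666), and -1.13 (SE 0.47, limma adjusted p = 0.159). Per1 had 13619.9, 19911, 18057 and 25242 against 4751 to 29302 (median 19276), and 0.36 (SE 0.27, limma adjusted p = 0.498). Arntl, the activator that Nr1d1 represses, had 4856, 5024, 5008 and 5108 against 2082 to 5309 (median 3766), and 0.49 (SE 0.16, limma adjusted p = 0.0611), with 2 of the 16 reference samples above the lowest number 1 sample. Of the 8 activators and opposite-phase genes only Npas2 passed, at 0.52 (SE 0.14, limma adjusted p = 0.0218), and none did without A1, B1 or C1, with number as a random block or with 1 mean per number. Without G1, Arntl passed too (0.62, limma adjusted p = 0.0403). The reference numbers differed among themselves, as number 4 had a mean of 14579 for Nr1d1, and numbers 3, 5 and 6 had 5931, 3645 and 5478. The count of 4 lower genes fell to 2 without B1, without C1 or with number 2 added, and to none with 1 mean per number. The labels give no time of day, and its part in these values was not tested.

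**Figure D4:**
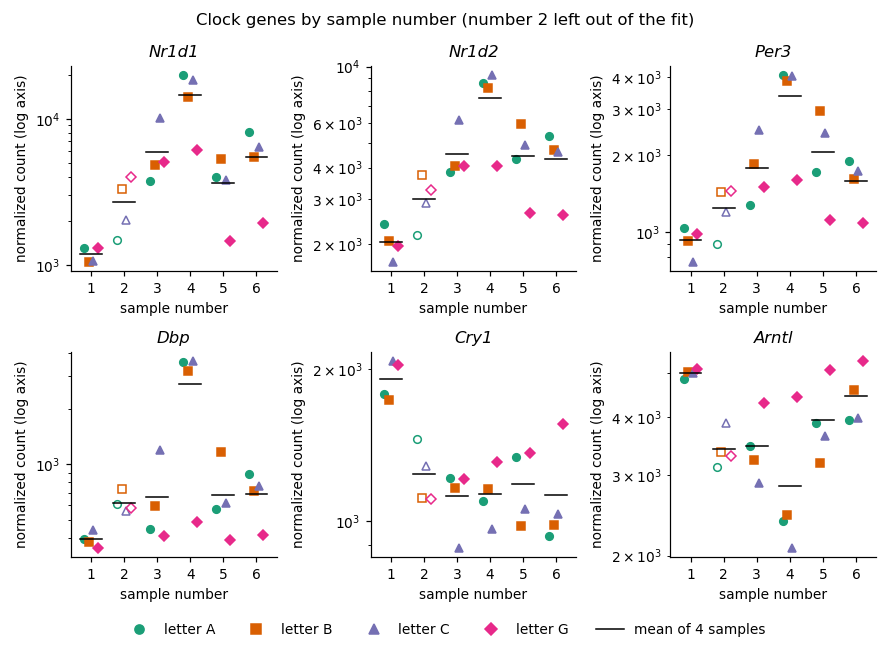
Normalized counts (vertical axis, log scale) of 6 clock genes by sample number (horizontal axis); symbols as for the matrix genes, with bars at the mean of 4 samples. Number 1 lies under all points of numbers 3 to 6 for Nr1d1, Nr1d2 and Per3, above them for Cry1, and overlaps with them for Dbp and Arntl.

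Immediate early genes (14) and heat shock chaperones (13) had no member past the threshold, with medians of -0.29 and -0.17. Fos had 1380.5, 1654, 1389.6 and 1355 against 737 to 7621 (median 1969), and Hspa1b 967, 1063, 879 and 1083 against 893 to 5782 (median 1739), each with a wider spread in the reference than in number 1. Of 16 glucocorticoid and fasting genes, 1 was higher, Sgk1 at 0.39 (SE 0.10, limma adjusted p = 0.0165), and 1 lower, Txnip at -0.40 (SE 0.10, limma adjusted p = 0.0118). Neither passed without B1, with number as a random block or with 1 mean per number, Sgk1 did not without A1 or C1, and Txnip did not without G1 or with number 2 added. Fkbp5, a glucocorticoid target, had 937 in A1, 1068 in B1, 1061 in C1 and 3096 in G1, against 1075 to 13556 (median 1831), and did not pass (adjusted p = 0.38, limma). G1 stood apart from the other 3 for Fkbp5.

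Polycyclic aromatic hydrocarbons act through the aryl hydrocarbon receptor (AhR). Of 14 AhR and NRF2 targets, genes of the aryl hydrocarbon receptor and of the oxidative stress response, 1 passed, Tiparp, lower at -0.21 (SE 0.06, limma adjusted p = 0.0226). That is near the 8.84% of all genes that passed. Tiparp did not pass when any 1 of the number 1 samples was left out, with number 2 added, with number as a random block or with 1 mean per number, and without G1 the lower genes were Aldh3a1 and Slc7a11. Cyp1a1, the main AhR target, had 6779.7 in A1, 9354 in B1, 4059 in C1 and 4160.2 in G1, against 1079.7 to 12331 (median 4273), and 0.44 (SE 0.37, limma adjusted p = 0.554). Ahrr, the AhR repressor, had 269.7, 342, 259 and 82.5 against 45.4 to 629.9 (median 432), and -0.44 (SE 0.23, limma adjusted p = 0.274). Both lay among the reference samples, and within number 1 Ahrr was lowest in G1. A low value in G was not particular to number 1. Over all 6 numbers, the mean score of this list ran from -0.57 to -0.26 in G samples and from -0.22 to 0.58 in A, B and C. Of 10 cytochrome P450 genes of families 2 to 4, 3 were lower: Cyp2e1 at -0.76 (SE 0.20, limma adjusted p = 0.0214), Cyp2s1 at -0.68 (SE 0.15, limma adjusted p = 0.00732) and Cyp3a13 at -0.61 (SE 0.10, limma adjusted p = 0.000773). The count was 1 without B1 or with number 2 added and 0 with 1 mean per number. Of 13 p53 targets, Zmat3 and Phlda3 were higher, at 0.35 (SE 0.05, limma adjusted p = 0.000229) and 0.31 (SE 0.07, limma adjusted p = 0.00931), and Sesn1 lower at -0.21 (SE 0.06, limma adjusted p = 0.0493). Of 15 lung cancer driver genes, only Trp53 passed, at 0.18 (SE 0.05, limma adjusted p = 0.0304), again near the 8.84% of all genes. Of the p53 targets none passed with 1 mean per number, Phlda3 was lost without B1, without C1 or with number as a random block, and Sesn1 was lost when any 1 of the number 1 samples was left out, without A4 and B4, with number 2 added, with 75th percentile scaling or with number as a random block. Trp53 was lost without A1, B1 or C1, without A4 and B4, with number 2 added, with number as a random block and with 1 mean per number.

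Genes of protein synthesis were slightly lower. Of 16 cytosolic ribosomal protein genes, 12 were lower and none higher, with a median of -0.23, where 4.42% of all genes tested were lower. Of all 86 such genes found, a family chosen after its values were seen, 58 were lower and none higher. Among all genes with a mean of at least 10, 5.83% were lower. Rps14 had 23316 in A1, 26305 in B1, 24424 in C1 and 25289 in G1, against 27489 to 33865 (median 30571), and a log2 difference of -0.30 (SE 0.05, limma adjusted p = 0.000687). Rpl5 and Rpl7 had -0.29 (SE 0.06, limma adjusted p = 0.00175) and -0.28 (SE 0.06, limma adjusted p = 0.00773). For these 3 genes the groups did not overlap. Together the 86 genes took 1.13% to 1.21% of all normalized counts in number 1 and 1.26% to 1.51% in the reference, so that the ranges were separate. The count of 12 fell to 5 without A1, to 7 without C1 or with number as a random block and to none with 1 mean per number. Of 9 mitochondrial genome transcripts, 3 were lower, mt-Co3 at -0.34 (SE 0.08, limma adjusted p = 0.0088), mt-Nd4 at -0.25 (SE 0.07, limma adjusted p = 0.0321) and mt-Nd1 at -0.25 (SE 0.07, limma adjusted p = 0.0319), while none of 16 nuclear oxidative phosphorylation genes passed. The mitochondrial count of 3 fell to none with number as a random block, with 1 mean per number, without B1 or without C1, was 1 without A1 and rose to 5 without G1.

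Red blood cell genes were lower where they passed. Of 7, 4 were lower and none higher, with a median of -1.18. Slc4a1, the anion exchanger of erythrocytes, had 654 in A1, 569 in B1, 474 in C1 and 563 in G1, against 404 to 9428 (median 2891), and a log2 difference of -2.14 (SE 0.52, limma adjusted p = 0.012). Alas2, the erythroid haem enzyme, and the beta globin Hbb-bt had -1.30 (SE 0.32, limma adjusted p = 0.0143) and -1.18 (SE 0.32, limma adjusted p = 0.0261), although near-identical globin copies make the latter uncertain. In none of the 7 did the groups separate. None of the 7 passed without A1, without B1 or without C1, with number as a random block, with 1 mean per number or with number 2 added, and 1 passed without the letter as a block or without number 5. None of 6 platelet genes passed, with a median of -0.40, and without G1 Pf4 was lower (-0.53, limma adjusted p = 0.0266).

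Lipid and growth lists varied, where 8.84% of all genes tested passed. The imprinted growth genes had the most members past the threshold, with 3 higher and 1 lower of 10. Of 15 sterol synthesis genes, 1 passed, Hmgcs1 at 0.56 (SE 0.14, limma adjusted p = 0.0162), and of 13 fatty acid genes 2, Fads1 at 0.57 (SE 0.13, limma adjusted p = 0.00612) and Elovl5 at 0.14 (SE 0.04, limma adjusted p = 0.0494), all higher. Of 10 adipose genes, Cfd and Cidea were lower without overlap, at -1.06 (SE 0.23, limma adjusted p = 0.00471) and -0.63 (SE 0.10, limma adjusted p = 0.000379). Among 10 imprinted growth genes, Mest had 794 in A1, 608 in B1, 654 in C1 and 231 in G1, against 96.0 to 283 (median 182), and 1.51 (SE 0.28, limma adjusted p = 0.00142), so that A1, B1 and C1 were above the reference range and G1 inside it. Plagl1 and Grb10 were higher and Cdkn1c lower, at 0.41, 0.32 and -0.34. The hypoxia gene Ndrg1 was lower at -0.55 (SE 0.11, limma adjusted p = 0.00318), without overlap. Of 12 genes of the unfolded protein response, Trib3 and Asns were lower, at -0.39 and -0.21. None of the sterol, fatty acid, adipose, hypoxia and unfolded protein genes passed with 1 mean per number. Without A1, B1 or C1, Hmgcs1, Trib3, Asns and Cdkn1c did not pass, and Elovl5 did not when any 1 of the number 1 samples was left out. Of the 3 higher imprinted genes, only Mest passed without A1, without C1, with number as a random block or with 1 mean per number. Markers of lymphatic endothelium, mesothelium, cartilage, skeletal and cardiac muscle, and neurons and Schwann cells had no member past the threshold.

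**Figure D5:**
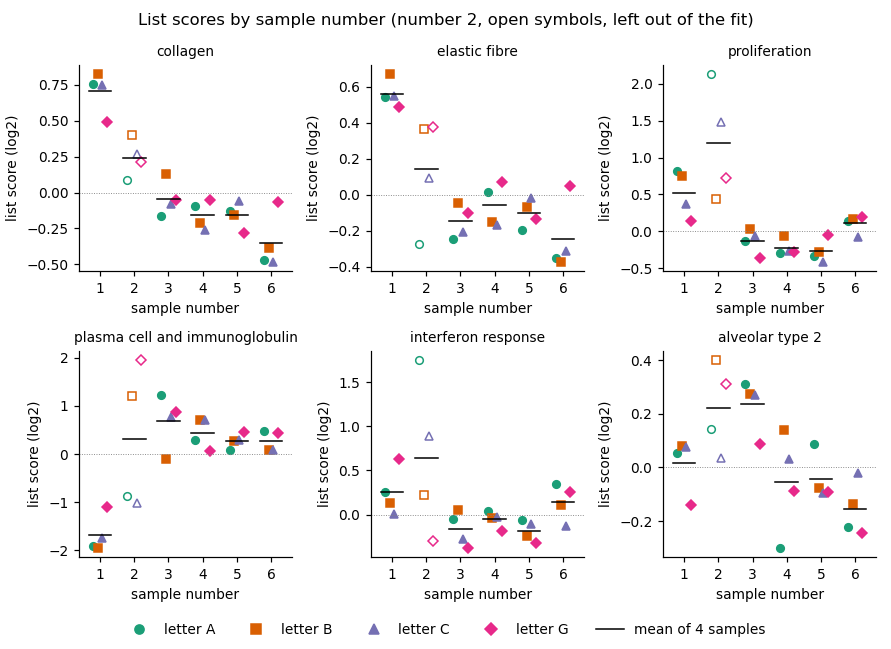
List scores of 6 gene lists (vertical axis, log2 units: each gene centred on its own average across the 20 samples, then averaged within the list) by sample number (horizontal axis); symbols as for the matrix genes, with bars at the mean of 4 samples and number 2 in open symbols. Number 1 scores run from 0.49 to 0.82 for collagen against -0.48 to 0.13 in numbers 3 to 6, and from -1.94 to -1.10 for immunoglobulin genes against -0.11 to 1.23, while proliferation, interferon and alveolar type 2 scores overlap.

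The number 1 difference was also compared between the letters. A letter by number 1 interaction, added after the values were seen, passed for 4 of 30663 genes (limma), with 703 at an unadjusted p under 0.05. The 4 IgG constant regions, Igkc, Jchain and the matrix genes Eln, Fbn1, Nid1, Col1a1 and Col3a1 had the same direction in all 4 letters. That had to be so, because these genes did not overlap. Each letter has only 1 number 1 sample, so a comparison of letters rests on single samples. G1 was the lowest of the number 1 samples for these 5 matrix genes and the highest for the 4 IgG constant regions, Igkc and Jchain, and none of these 11 genes passed the interaction test.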

How the data were processed

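The mRNA of 24 rat lung samples was sequenced, and the authors deposited 1 table of normalized counts, a signal with no raw counts. The normalization is not given in the sources used here, and the submitters' processing notes name STAR and GRCm38, a mouse build, without role or version. Its part in these values was not tested. A rat RefSeq symbol matched 52.6% of the 30667 row names, and 37.6% are mouse gene-model or clone names. Paralogs and immunoglobulin segments are therefore uncertain. Columns matched sample titles, and none was left unmapped.

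Values were analysed as log2(value + 1), so differences of low genes are understated. Genes with a mean of at least 0.5 were fitted (30663; 4 left out) with limma 3.58.1 in R 4.3.3 (trend), number 1 against the mean of numbers 3 to 6, with the letter as a block because the rule for the comparison sets it. The number 1 samples were little correlated with same-letter samples of numbers 3 to 6. These 16 correlations ran from -0.21 to 0.16, and 2 were over 0.1. That check did not compare numbers 3 to 6 with each other. Some list scores did differ by letter. In numbers 3 to 6, the red blood cell score ran from -1.82 to -0.493 in G. It ran from -0.487 to 1.72 in A, B and C. The threshold was an adjusted p of 0.05 (Benjamini-Hochberg). Genes were named as the 10 highest and 10 lowest differences with a mean of at least 50, no overlap, 1 direction in all 4 letters and a symbol that is no gene-model name, the 5 smallest p-values, up to 3 members past the threshold per list and a set of preset genes. Others were chosen after their values were seen, as were the families (mean of at least 10). The members and lists were chosen with earlier results of these data known. The scripts were tested on simulated data. Alternatives covered scaling, pseudocount, filter, blocks, reference numbers and each sample left out.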

Additional observations from a re-analysis of the deposited data

Results flagged for a closer look

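In 192 groups of 4 number 1 values, the gap of 1 sample to the next was large for the group's range in 23. A rate of 1 in 20 groups, or 9.6, would hold only for independent groups not chosen by their values. These groups share the same 4 samples, and some genes were chosen after their values were seen. Among the latter, Csn2 and Gm7105 also passed the test of G given below, so the counts are a description. Of the 23, 15 were in G1, 5 in A1, 2 in B1 and 1 in C1.

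The G1 values were normalized counts of 362 for Klk6, 248 for Slc26a10, 92.6 for Igkv14-100, 210.3 for Ighv5-9, 324 for Igkv12-98, 3096 for Fkbp5, 24462 for Igha, 516 for Cd3e, 11857 for Tbx4 and 4342 for Wnt5a, and 1.02 for Csn2 and 249.5 for Gm7105. List scores in G1 were -0.14 for alveolar type 2, -0.45 for neuron and Schwann cell and 0.44 for neutrophil and acute phase genes. A1 stood apart with 4052 for Phlda3, 3892 for Foxa2, 53.8 for Kel and 1383 for Vcan, and with 0.12 for the fibroblast and pericyte score. B1 did so with 1654 for Fos and 322 for Cfd, and C1 with 11774 for Wif1.

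The difference of number 1 from the reference was itself different in G for 4 genes by limma, in each case lower in G than in A, B and C, with 1107 genes at an unadjusted p under 0.05. The log2 effect in G minus that in the other letters was -3.69 for Csn2, -3.00 for Gm12912, -1.83 for Gm36985 and -2.25 for Gm7105. Gm12912 had 1376, 1633, 1525 and 190.2 normalized counts in A1, B1, C1 and G1, against 1821 to 2301 (median 2054) in the reference samples. Gm36985 had 336, 323, 283 and 85.5 against 318 to 459 (median 370), and Csn2, a milk casein gene, 22.1, 21.6, 25.2 and 1.02 against 17.3 to 38.1 (median 24.6). The low sample was G1 in all 4 genes, and the cause was not tested.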

How the results depend on the processing

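The main count of 2711 genes past the threshold (1356 higher, 1355 lower) became 4635 (2241, 2394) with a mean for each of 5 numbers and 4923 (2363, 2560) with sample quality weights. It became 1165 (662, 503) with number as a random block, 1672 (826, 846) with number 2 added to the reference and 163 (62, 101) with 1 mean per number. Leaving out 1 sample gave 1418 to 2802 genes, 741 to 1431 higher and 654 to 1415 lower, with 1418 without A1, 1487 without B1 and 1544 without C1. With 1 sample left out, number 1 against number 3 gave 2981 to 3862, number 1 against number 4 gave 2823 to 3995, number 1 against number 5 gave 1623 to 2345 and number 1 against number 6 gave 2691 to 4521. Number 4 gave 2654 from only those 8 samples. The cause of these shifts was not tested. The fit with no replicate block, in which the letters do not pair the samples, gave 2842. Quantile normalization gave 2568 (1400 higher) and scaling to the 75th percentile 2739 (1475 higher). Of 123 named genes that passed, 36 still passed with 1 mean per number, 86 with number as a random block, 89 with number 2 added and 109 without G1. None of the 123 changed direction under any of the 37 alternatives, which was largely fixed in advance. The fits without the block, with other filters, with number as a random block or with 1 mean per number leave the difference itself unchanged. A gene without overlap also cannot change direction when 1 sample is left out. Read depth is unknown, so the precision of low values cannot be given.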

Other observations

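Genes of tuft cells, rare chemosensory cells of the airway epithelium, were not among the lists and were chosen after their values were seen, so they are described without a test of the group. Of 14 with a mean of at least 10, 9 were higher and 1 lower in number 1, with a median log2 difference of 0.56. Among all genes with such a mean, 6.03% were higher and 5.83% lower. In 8 of the 14 the groups did not overlap, which also held for 1071 of all 21889 genes with such a mean. Pou2f3, the factor that specifies tuft cells, had 325 in A1, 348 in B1, 314 in C1 and 388 in G1, against 113 to 235 (median 195), and a log2 difference of 0.84 (SE 0.13, limma adjusted p = 0.000281). Trpm5, the cation channel of taste signalling, had 2587, 2946, 2864 and 3917 in A1, B1, C1 and G1 against 1349 to 2001 (median 1658), and 0.87 (SE 0.07, limma adjusted p = 1.78e-07). Gnat3, the taste G protein gustducin, had 201, 268, 209 and 243 against 53.7 to 108 (median 79.0), and 1.55 (SE 0.18, limma adjusted p = 1.16e-05). Avil and Sh2d6 had 0.62 (SE 0.07, limma adjusted p = 2.1e-05) and 0.90 (SE 0.09, limma adjusted p = 1.75e-06). Plcb2, a phospholipase of the same pathway that blood cells also express, was lower at -0.60 (SE 0.16, limma adjusted p = 0.0182).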
